A study of Homo sapiens with 54 samples.

Results

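Chromosome 1 carries 83 of the 422 nuclear transfer RNA (tRNA) genes with numbered symbols in the RefSeq gene table of GRCh38.p14, against 339 on the other chromosomes. They were chosen by annotation alone, as the numbered tRNA genes of chromosome 1 that start beyond its first 100 kb. Binding near them was read from chromatin immunoprecipitation with sequencing (ChIP-seq) in T47D cells, an established line of oestrogen and progesterone receptor positive breast cancer. All cells were of this 1 line and were given either ethanol vehicle or R5020, a synthetic progestin that activates the progesterone receptor (PR), for 1 h. Chromatin was precipitated with 8 antibodies: against PR, against 4 subunits of RNA polymerase III (POLR3A, POLR3C, POLR3G, POLR3GL), against the initiation factor Brf1, against the repressor Maf1, and against histone H3 acetylated at lysine 27 (H3K27Ac). For each of them 3 libraries per treatment were summarised in 1 deposited peak list, so there is no spread between replicates, and no test of a treatment was possible.

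RNA polymerase III makes tRNA from promoter elements inside the gene, called the A box and the B box. The factor TFIIIC reads these boxes and places TFIIIB, of which Brf1 is a subunit, just before the start, and TFIIIB recruits the polymerase. POLR3A is the largest subunit and forms part of the catalytic centre, POLR3C belongs to a subcomplex used in initiation, and POLR3G and POLR3GL are alternative forms of another subunit of that subcomplex. Maf1 binds the polymerase and represses it. The tRNA symbols name the amino acid by its letter (N for asparagine, G for glycine, X for initiator methionine), then the anticodon, then a number shared by genes with the same mature tRNA, and last the gene copy.

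A gene was counted as having a region when a peak of the list lay within 200 bp of it. Its value is the fold enrichment that the authors deposited for that peak, a ratio of signal over the caller's background with no unit, taken from the peak with the highest -log10 of the q-value where there were several. Folds are the authors' values and are described within 1 list. Where vehicle and R5020 folds of a gene stand side by side, each describes its own list. Since the lists differ in length, neither folds nor percentiles measure a change between them. The PR lists held 6663 regions with vehicle and 173129 with R5020, and the Maf1 lists 3049 and 22683. Brf1 had 370 and 1173 regions, POLR3A 688 and 1047, POLR3C 673 and 699, POLR3G 58424 and 46875, POLR3GL 1104 and 603, and H3K27Ac 88870 and 112543. The labelled cell type was looked up in H3K27Ac: 9 of 9 luminal marker genes had a region within 1 kb of an end in both lists, against 3 of 5 basal, 2 of 4 fibroblast and, of 4 leukocyte genes, 2 with vehicle and 1 with R5020. Titles and treatment tags disagree for 4 libraries, titled R5020 but tagged ethanol: 2 of POLR3C, 1 of POLR3G and 1 of POLR3GL. Comparisons of treatments for these subunits rest on the titles.

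No member has a promoter sequence of its own in the RefSeq table, but 3 of the 83 lie whole inside the promoter window of another gene. A pair of asparagine genes among them, 1 with and 1 without a PR region, can be set side by side. TRN-GTT4-1 lies on the short arm and TRN-GTT6-1 on the long arm. Both had POLR3A, with vehicle and R5020 folds of 9.95 and 10.9 at TRN-GTT4-1 and 27.9 and 32.2 at TRN-GTT6-1. Brf1 was at TRN-GTT4-1 with R5020 alone (6.70) and at TRN-GTT6-1 in both lists (8.17 and 22.3). Only TRN-GTT6-1 had a PR region with R5020, at chr1:143735857-143736128, a width of 272 bp. The sequences below run from 60 bases before to 123 bases after the gene on the strand of the tRNA, with the tRNA gene in capitals (RefSeq, GRCh38.p14). They cover chr1:16889617-16889873 on the plus strand and chr1:143735797-143736053 on the minus strand, and 197 bases of the PR region are in the second.
TRN-GTT4-1: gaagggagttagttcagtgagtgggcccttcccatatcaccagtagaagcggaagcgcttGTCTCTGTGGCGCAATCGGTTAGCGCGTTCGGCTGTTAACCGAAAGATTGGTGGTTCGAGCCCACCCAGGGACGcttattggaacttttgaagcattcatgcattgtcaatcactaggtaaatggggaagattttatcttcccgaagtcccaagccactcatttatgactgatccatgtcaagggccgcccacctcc
TRN-GTT6-1: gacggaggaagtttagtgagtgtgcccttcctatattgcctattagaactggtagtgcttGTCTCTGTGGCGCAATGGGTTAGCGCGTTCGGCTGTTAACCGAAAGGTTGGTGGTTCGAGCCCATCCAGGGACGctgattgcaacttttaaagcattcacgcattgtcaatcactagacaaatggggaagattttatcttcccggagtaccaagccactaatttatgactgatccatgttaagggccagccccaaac

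The genes are 74 bases long and share 71 of them without gaps. The differences, with the base of TRN-GTT4-1 first and positions counted from 1 at the 5′ end of the gene, are C17G, A47G and C65T. The B box, searched on both strands as GGTTCGA, any 2 bases and CC, starts at base 53 in both. Of the 123 bases after the gene 107 were the same, and of the 60 before it 28 were the same when set side by side without gaps. Neither sequence held the full receptor element (G, any base, ACA, any 3 bases, TGT, any base, C) or the single-arm element TGTNCT, searched on both strands. Of 34943 promoter windows of 300 bases in the table, 0.389% held the full element and 41.5% the single-arm element, so absence says only that these letters were not in these windows. A full element overlaps the single-arm element where its last base is followed by T.

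Members were unevenly spread along the chromosome. Joined where less than 1 Mb lay between them, and never across the centromere, they formed 13 clusters, 15 genes on the short arm and 68 on the long arm, with a stretch of 22.6 Mb free of members between the arms. The first short-arm cluster, from TRN-GTT5-1 to TRN-GTT4-1, held 8 genes within 369 kb at 16.52 to 16.89 Mb. TRK-CTT7-1 stood alone at 54.96 Mb, TRC-GCA7-1 and TRR-TCT1-1 lay at 93.52 to 93.85 Mb, and 4 genes from TRN-GTT7-1 to TRN-GTT27-1 at 120.84 to 121.05 Mb. On the long arm, 23 genes from TRQ-CTG4-2 to TRN-GTT2-1 spread over 4838 kb at 143.69 to 148.53 Mb, and 3 from TRN-GTT25-1 to TRN-GTT8-1 followed at 149.56 to 149.74 Mb. The cluster with most genes, at 161.40 to 161.61 Mb, held 32 genes from TRV-CAC1-1 to TRL-CAA6-1 within 212 kb. The remaining long-arm clusters were small. TRX-CAT1-1 stood alone at 153.67 Mb, TRR-TCT4-1 at 159.14 Mb and TRT-TGT2-1 at 222.47 Mb. The pair TRP-CGG1-1 and TRP-AGG2-1 lay at 167.71 Mb, the 3 lysine genes from TRK-TTT3-1 to TRK-TTT8-1 at 204.51 to 205.47 Mb, and the pair TRL-CAA4-1 and TRE-CTC2-1 at 248.87 Mb. The members decode 14 amino acids in 49 families of identical mature tRNA. Asparagine stands out by number, with 17 genes on chromosome 1 and 4 elsewhere, and so do glycine with 18 and 12 and glutamate with 9 and 6.

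POLR3A lay at most members. It was found at 67 of 83 with vehicle and 70 of 83 with R5020, where 85.3% and 85.1% of all 422 tRNA genes had a region. Brf1 was found at 49 and 50 members (71.1% and 73.2% of all tRNA genes). Of the 83, 66 had POLR3A in both lists, 1 with vehicle alone, 4 with R5020 alone and 12 in neither. For comparison, 83.4% of all tRNA genes had POLR3A in both lists, 1.90% in the vehicle list alone and 1.66% in the R5020 list alone. Brf1 stood at 47 members in both lists, at 2 with vehicle alone and at 3 with R5020 alone (69.9%, 1.18% and 3.32% of all tRNA genes). All 52 members with Brf1 in either list also had POLR3A, while 19 members had POLR3A and no Brf1. Among the 19 were TRD-GTC2-1 to TRD-GTC2-5 and TRL-CAG1-1 to TRL-CAG1-5, genes of the tandem array described below. On the other chromosomes 262 of 339 genes had Brf1 in either list and 296 had POLR3A in either list.

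Other polymerase subunits were found at fewer members. POLR3C had a region at 19 members in each list (23.5% and 27.7% of all tRNA genes), POLR3G at 29 and 26 (51.2% and 48.1%), and POLR3GL at 0 and 1 (0% and 2.37%). Both POLR3C lists shared 18 members, with 1 in each list alone (21.1%, 2.37% and 6.64% of all tRNA genes). Both POLR3G lists shared 25, with 4 in the vehicle list alone and 1, TRV-CAC8-1, in the R5020 list alone (47.4%, 3.79% and 0.711%). For POLR3GL, a count of 0 of 83 allows a share of up to 3.61%. The single POLR3GL region, with a fold of 3.36 at percentile 79.6 of its list, lay over TRK-CTT2-1, a lysine gene at chr1:146039401-146039473. Most POLR3G folds at members ranked high: with R5020 they ran from 2.17 to 13.4, and their median stood at percentile 99.9 of the list. The lowest, at TRV-CAC1-7, stood at percentile 4.69. On the other chromosomes the R5020 median stood at percentile 99.8, so the rank is not particular to chromosome 1. Counted once per region, the median fold was 6.18 at members and 7.50 on the other chromosomes. Of the 71 members with POLR3A in either list, POLR3C with R5020 lay at 16 of 26 that also had POLR3G and at 3 of 45 that had not. The difference was 54.9 points (95% Newcombe interval 32.8 to 71.5). All such intervals here cover the counting of genes only, are not adjusted for the number of comparisons, and treat neighbouring genes as independent, which they are not.

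H3K27Ac marked 27 members with vehicle and 23 with R5020 (41.0% and 37.7% of all tRNA genes). Both lists held 23 members (36.5% of all tRNA genes). Listed with vehicle alone were TRN-GTT4-1, TRN-GTT6-1, TRN-GTT2-8 and TRT-TGT2-1, and none with R5020 alone. Over all tRNA genes 4.50% had it with vehicle alone and 1.18% with R5020 alone. The vehicle folds at these 4 genes were low, 2.58, 3.16, 5.39 and 4.05, beside a median of 12.1 over the 27 members. A total of 16 members had POLR3A, Brf1, POLR3C, POLR3G and H3K27Ac in both lists, 1 of them on the short arm (TRR-TCT1-1). The remaining 15 include the initiator methionine gene TRX-CAT1-1, both proline genes and the neighbouring TRE-CTC1-1, TRG-TCC2-1, TRH-GTG1-1 and TRK-CTT2-1. These neighbours share a POLR3G region in each list. TRG-TCC2-1, TRH-GTG1-1 and TRK-CTT2-1 also share their Brf1 and H3K27Ac regions, so the count is of genes and not of separate regions. The same count was not made over all tRNA genes.

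**Figure D1:**
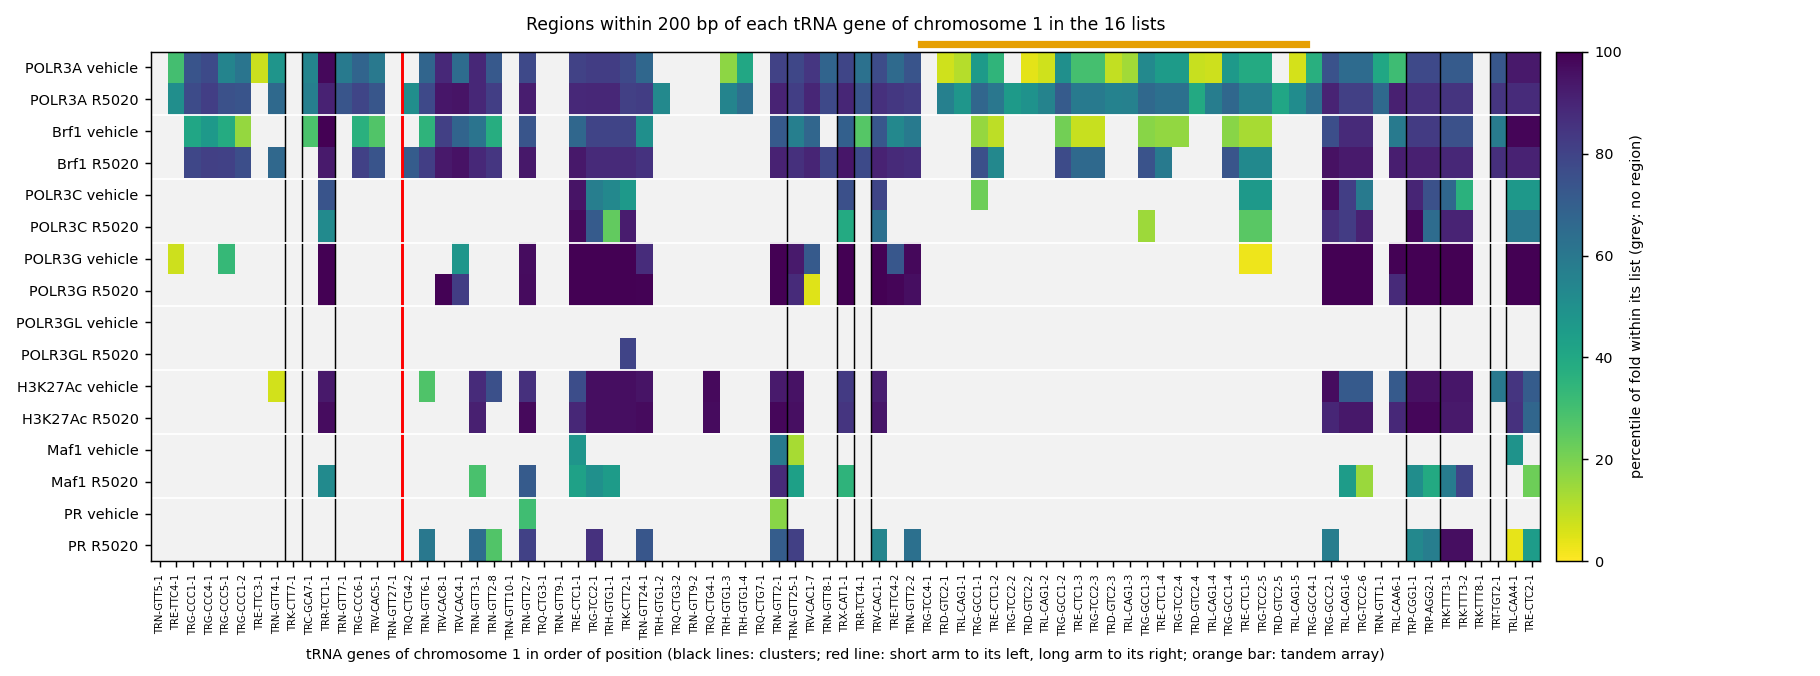
Each column is 1 of the 83 members in order of position and each row 1 of the 16 lists, and the colour is the percentile of the fold within that list. POLR3A and Brf1 rows are filled along most of the chromosome, while the PR row with R5020 holds 17 genes, none left of the red line that separates the arms and none under the orange bar of the tandem array. Colours are not comparable between rows of different list length.

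The highest POLR3A folds with vehicle were at TRR-TCT1-1 (57.8), an arginine gene inside BCAR3, at TRL-CAA4-1 and TRE-CTC2-1 (54.8 from 1 shared region), at TRN-GTT3-1 (49.5) and at TRV-CAC8-1 (48.9). With R5020 they were at TRV-CAC4-1 (66.2), TRV-CAC8-1 (65.8), TRN-GTT2-7 (60.4), TRL-CAA6-1 (60.3) and TRR-TCT1-1 (59.9). TRR-TCT1-1 and TRV-CAC8-1 stood in both groups. The Brf1 folds were highest with vehicle at TRR-TCT1-1 (51.5), at TRL-CAA4-1 and TRE-CTC2-1 (50.4) and at TRL-CAG1-6 and TRG-TCC2-6 (40.4). With R5020 the highest were TRG-GCC2-1 (76.8), TRV-CAC4-1 (75.8), TRX-CAT1-1 (72.4), TRN-GTT2-7 (71.4) and TRE-CTC1-1 (71.1). Neighbouring genes often shared 1 region: 16 members shared a POLR3A region with another member in each list.

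TRL-CAA6-1, a leucine gene at chr1:161611946-161612029, is a case where the region need not belong to the gene. Its vehicle POLR3A region had a fold of 5.74 with the summit inside the gene, and a separate region 224 bp away had 33.0. With R5020 both places fell into 1 region of fold 60.3, whose summit was 707 bp from the gene. Both Brf1 summits lay as far off, 687 and 684 bp from the gene, so the high values at TRL-CAA6-1 belong to a summit beside it.

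Across members the folds of the lists ran in parallel. Over the 66 genes with POLR3A in both lists the log2 folds had a Pearson r of 0.92 and a Spearman rho of 0.88. Over 47 genes with Brf1 in both lists these were 0.95 and 0.86. Between POLR3A and Brf1 they were 0.82 and 0.79 with vehicle, over 49 genes, and 0.95 and 0.91 with R5020, over 50 genes. The points are genes, not replicates, and share libraries and in part regions. The PR folds did not run with POLR3A folds over the 17 genes that had both (r = 0.02).

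The calls that differed between treatments had low folds. TRE-TTC3-1 had POLR3A with vehicle alone, at a fold of 3.05. TRQ-CTG4-2 (4.90), TRH-GTG1-2 (5.31), TRG-TCC2-2 (4.31) and TRD-GTC2-5 (3.87) had it with R5020 alone. Brf1 was listed with vehicle alone at TRC-GCA7-1 (6.80) and TRG-TCC2-4 (5.03), and with R5020 alone at TRN-GTT4-1 (6.70), TRQ-CTG4-2 (7.93) and TRN-GTT8-1 (16.4). TRQ-CTG4-2, a glutamine gene, was the member that entered both lists with R5020. The median fold over members was 22.9 and 19.9 in the POLR3A lists and 22.6 and 44.7 in the Brf1 lists. Apart from TRN-GTT8-1, all these folds were below 8.

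**Figure D2:**
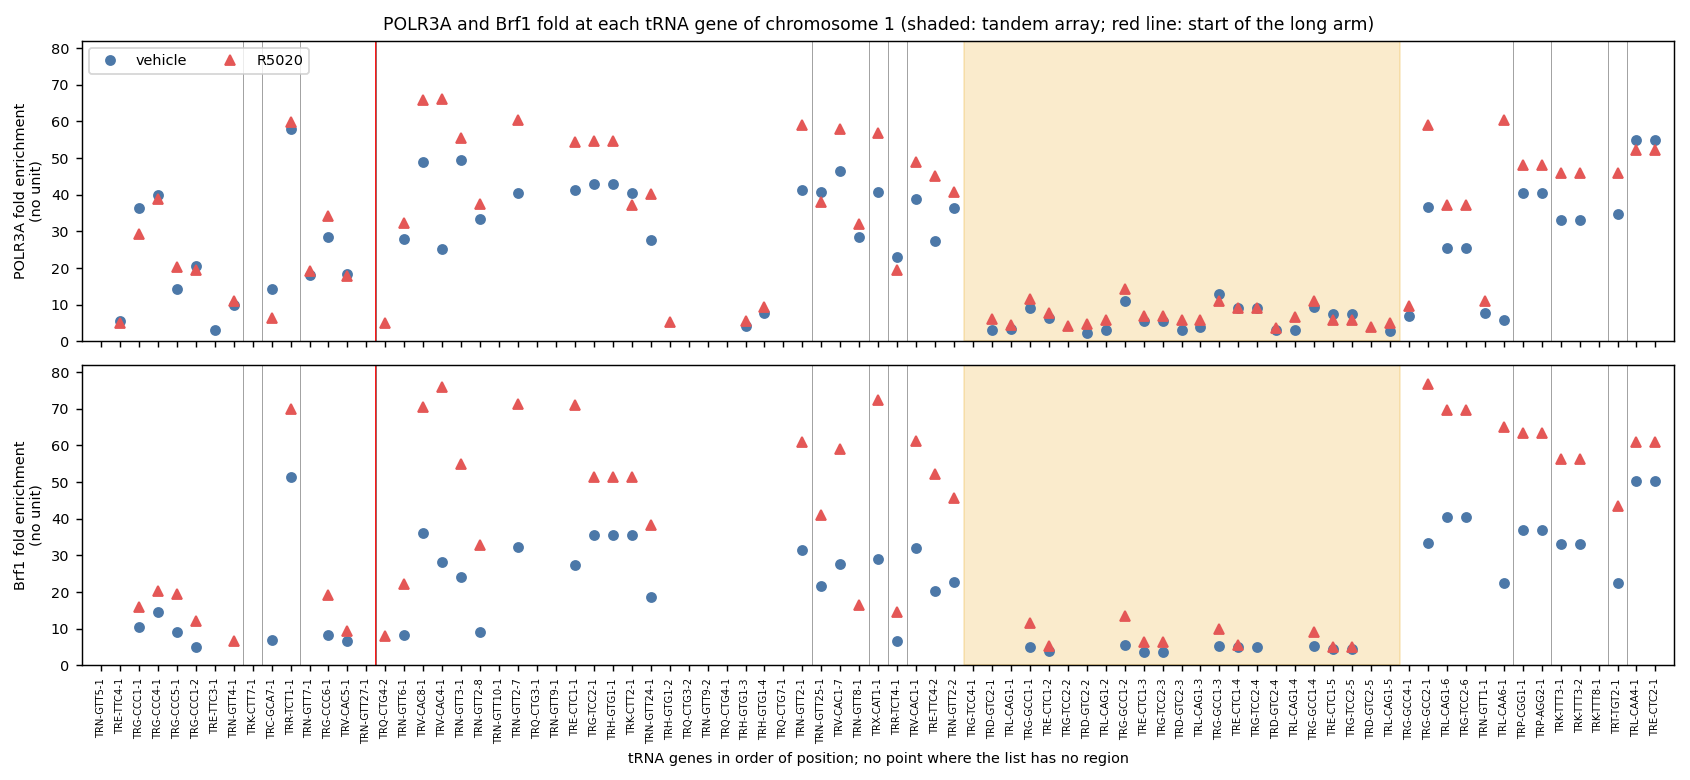
Fold enrichment of POLR3A (top) and Brf1 (bottom) at each member in order of position, circles for vehicle and triangles for R5020, with no point where a list had no region. The shaded tandem array stays between 2.22 and 14.3 for POLR3A, as do TRG-GCC4-1 and TRN-GTT1-1 to its right, while most other members lie higher, up to 66.2.

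The 12 members without POLR3A were spread over both arms, 3 on the short arm and 9 on the long arm. By amino acid they were 5 asparagine, 4 glutamine, 2 lysine and 1 glycine genes. TRN-GTT5-1, TRK-CTT7-1, TRN-GTT27-1, TRN-GTT10-1, TRQ-CTG3-1, TRQ-CTG3-2, TRN-GTT9-1, TRN-GTT9-2, TRQ-CTG7-1, TRG-TCC4-1 and TRK-TTT8-1 had no region of any of the 8 antibodies in either list. TRQ-CTG4-1 was the exception, with H3K27Ac folds of 17.8 and 18.3 and nothing else. Of the 5 glutamine genes, only TRQ-CTG4-2 had POLR3A at all. Elsewhere in the genome 13 of 14 glutamine genes had it.

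The tandem array was the most regular feature of the long arm. From TRG-TCC4-1 to TRL-CAG1-5, 23 genes fill 31.0 kb (chr1:161440171-161471205) with less than 5 kb between neighbours. After TRG-TCC4-1 they repeat as units of an aspartate, a leucine, a glycine, a glutamate and a glycine gene, spaced 7.38 to 7.42 kb apart. This stretch was picked out after its positions and values were seen. POLR3A was found at 20 of the 23 genes with vehicle and 22 with R5020, which is 87.0% and 95.7%, beside 86.4% and 85.3% of the genes on other chromosomes. Genes that share a region were each counted, in the array as elsewhere. TRG-TCC2-3, TRG-TCC2-4 and TRG-TCC2-5 were counted through a region shared with a neighbour, whose summit lay 305 to 327 bp from them. The array folds were low, from 2.22 to 12.8 with a median of 5.60 for vehicle and from 3.61 to 14.3 with a median of 5.96 for R5020. Members outside the array had medians of 33.0 and 39.6, and tRNA genes of the other chromosomes 41.2 and 49.9. PR, Maf1, POLR3GL and H3K27Ac had no region at any of the 23 genes in either list. For each, 0 of 23 allows a share of up to 13.0%.

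Values within the array differed between gene families. The 4 TRG-GCC1 genes were highest, with POLR3A folds of 9.19, 10.9, 12.8 and 9.28 with vehicle and 11.6, 14.3, 10.9 and 11.1 with R5020. The 4 TRE-CTC1 genes came next at 5.60 to 9.16 and 5.90 to 9.19. Both families had Brf1 at all 4 genes in both lists, from 4.97 to 13.5 at TRG-GCC1 and from 3.75 to 6.45 at TRE-CTC1. The TRG-TCC2 genes lie less than 1 kb from TRE-CTC1 genes, and TRG-TCC2-3, TRG-TCC2-4 and TRG-TCC2-5 shared the POLR3A region of their neighbour. The 5 TRD-GTC2 genes (2.22 to 3.18 at the 4 with a vehicle region, 3.61 to 6.02 with R5020) and the 5 TRL-CAG1 genes (2.85 to 3.90 and 4.56 to 6.57) had no Brf1 region. Their vehicle folds did not overlap with those of the TRG-GCC1 or TRE-CTC1 genes, while with R5020 they overlapped with TRE-CTC1 and not with TRG-GCC1.

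Copies of the same families outside the array carried far higher folds. TRE-CTC1-1, in the cluster at 143.69 to 148.53 Mb, had POLR3A folds of 41.2 and 54.5. TRG-TCC2-1 beside it had 42.8 and 54.6 from a region shared with TRH-GTG1-1, with the summit 12 bp away with vehicle but 906 bp away with R5020. TRG-TCC2-6 and TRL-CAG1-6, beyond the array in the same cluster, shared a region of 25.5 and 37.2, whose summits lay inside TRG-TCC2-6 and 751 and 753 bp from TRL-CAG1-6. The TRD-GTC2 copies of other chromosomes had vehicle folds of 33.0 to 56.4. These copies make the same mature tRNA as the array genes. In each of these families, every outside copy was above every array copy in both lists. How reads that match several repeats were placed is not given in the sources used here, so the split of signal between near-identical copies is uncertain, and its part in the low folds was not tested.

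**Figure D3:**
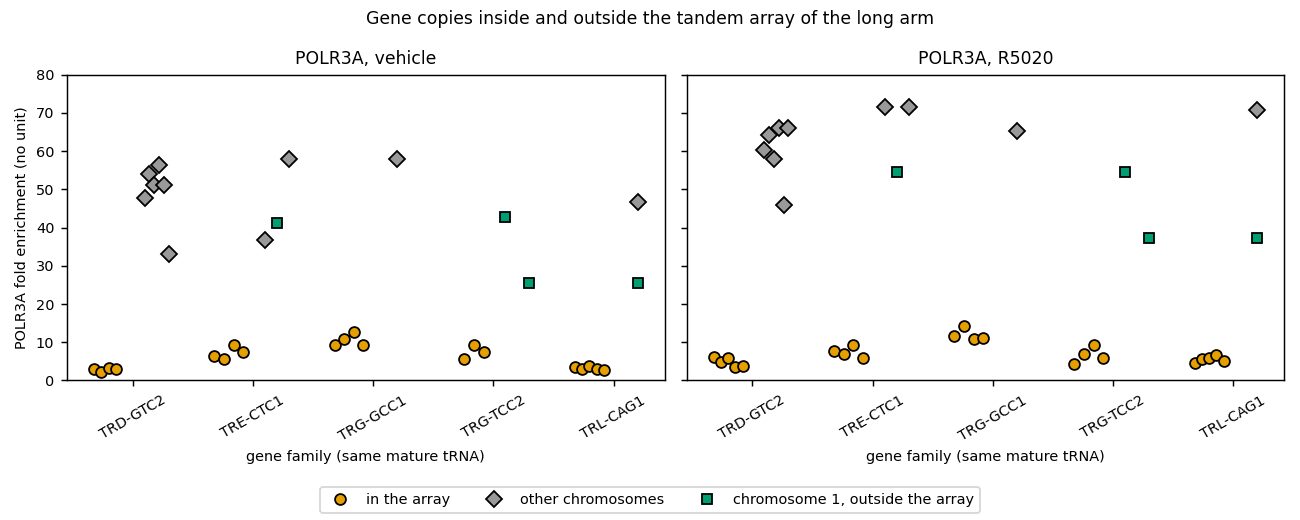
POLR3A fold of each gene copy of 5 families, with array copies as circles, other chromosome 1 copies as squares and copies of other chromosomes as diamonds. Array copies lie between 2.22 and 14.3 in both lists, and every other copy shown lies at 25.5 or above.

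Low folds were also found outside the array. TRG-GCC4-1, the next gene after it, had POLR3A folds of 6.96 and 9.68, and TRN-GTT1-1 further on had 7.74 and 10.9, both without Brf1. The histidine gene TRH-GTG1-1 had POLR3A folds of 42.8 and 54.6, with Brf1, Maf1 and H3K27Ac. Its POLR3A region was the one shared with TRG-TCC2-1, and the summit was 900 bp from TRH-GTG1-1 with vehicle and 6 bp with R5020. The Brf1 summits were 1279 and 1277 bp from it, beside the gene rather than in it. The other 3 genes of its family were TRH-GTG1-2 with no vehicle region and 5.31, TRH-GTG1-3 with 4.15 and 5.64, and TRH-GTG1-4 with 7.61 and 9.35, and none of these had Brf1. They share 1 mature tRNA, shown here once from TRH-GTG1-3 (chr1:148281365-148281436, plus strand, RefSeq GRCh38.p14) with the B box in capitals.
TRH-GTG1-3: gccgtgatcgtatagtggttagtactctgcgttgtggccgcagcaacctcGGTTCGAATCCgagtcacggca
The glutamate pair TRE-TTC4-1 (5.61 and 4.95) and TRE-TTC4-2 (27.3 and 45.2) differed in the same way, the lower one on the short arm and the higher one on the long arm. In contrast, the valine pair TRV-CAC1-7 (46.5 and 57.8) and TRV-CAC1-1 (38.9 and 49.0) had folds of like size.

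The array weighed on the comparison of chromosome 1 with the rest. Brf1 lay at 59.0% of members and 74.0% of other tRNA genes with vehicle, a difference of -15.0 points (95% Newcombe interval -26.6 to -3.91), and the R5020 difference was -16.2 (-27.7 to -5.20). POLR3G differed by -20.2 points with vehicle (-31.0 to -8.26) and -20.9 with R5020 (-31.3 to -9.02), and H3K27Ac by -12.4 with R5020 (-22.4 to -0.788). These were 5 of 16 comparisons whose interval excluded 0. Without the 23 array genes, an alternative added after the data were seen, none of the 16 intervals excluded 0. With 60 instead of 83 members these intervals were also wider. Brf1 with R5020 then differed by -9.73 points (-23.0 to 1.91) and POLR3G by -8.88 (-21.8 to 4.76). POLR3A with R5020 differed by -0.913 points over all members (-10.8 to 6.62) and by -5.25 without the array (-17.5 to 3.92).

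**Figure D4:**
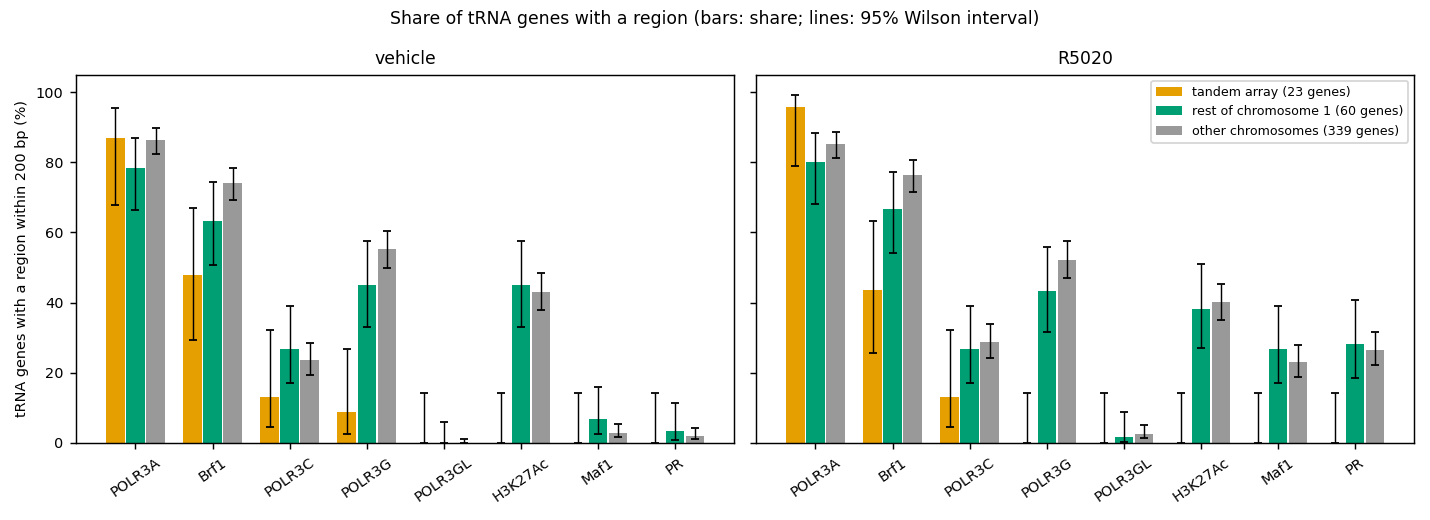
Share of tRNA genes with a region within 200 bp for the 8 antibodies, in the 23 genes of the tandem array, the 60 other members and the 339 genes of other chromosomes, with 95% Wilson intervals as lines. The array has the POLR3A share of the other sets but no bar for PR, Maf1 or H3K27Ac. For the other 60 members, Brf1 stands at 63.3% with vehicle and 66.7% with R5020, beside 74.0% and 76.4% on the remaining chromosomes.

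PR was at 2 members with vehicle and 17 with R5020, where 2.13% and 25.4% of all tRNA genes had a region. Both vehicle genes were asparagine genes, TRN-GTT2-7 (fold 3.52) and TRN-GTT2-1 (3.16), and both kept a region with R5020 (13.7 and 9.48). The other 15 members had PR with R5020 alone, as did 23.2% of all tRNA genes. The R5020 list was much longer than the vehicle list. When it was shortened to its 6663 strongest regions, 2 members remained, TRK-TTT3-1 and TRK-TTT3-2, of 8 tRNA genes in all. The share with R5020 PR, 20.5% (95% Wilson interval 13.2 to 30.4), stood beside 26.5% on other chromosomes, and the interval of the difference included 0 (-6.07 points, -14.9 to 4.77). Within 1 kb it did not (-14.7 points, -25.0 to -2.94).

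All 17 PR genes were on the long arm, 17 of 68 against 0 of 15 on the short arm (difference 25.0 points, 95% Newcombe interval 2.81 to 36.4). The interval included 0 when regions had to overlap the gene (20.6 points, -1.28 to 31.6), lie within 1 kb (20.5, -6.06 to 35.7) or have the summit within 200 bp (19.1, -2.64 to 30.0). It also did so with lists of equal length (2.94, -17.6 to 10.1). The short arm was also lower in R5020 POLR3G, 1 of 15 against 25 of 68 (30.1 points, 4.69 to 43.2), and in R5020 H3K27Ac, 1 of 15 against 22 of 68 (25.7 points, 0.502 to 38.7). With vehicle both intervals included 0 (POLR3G 18.2 points, -9.10 to 35.8, and H3K27Ac 23.4 points, -3.25 to 38.7). Of the 16 lists, only R5020 PR, POLR3G and H3K27Ac had an arm difference whose interval excluded 0. For R5020 POLR3A, 11 of 15 against 59 of 68, the interval included 0 (13.4 points, -5.27 to 39.4). By cluster, PR was at 7 of 23 genes at 143.69 to 148.53 Mb, at 3 of 32 in the cluster that holds the array, and at TRN-GTT25-1. Both proline genes at 167.71 Mb, TRK-TTT3-1 and TRK-TTT3-2 at 204.51 Mb, and both genes at 248.87 Mb had it as well. TRX-CAT1-1, TRR-TCT4-1 and TRT-TGT2-1 had none.

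The strongest PR region with R5020 covered the lysine genes TRK-TTT3-1 and TRK-TTT3-2 together, at chr1:204506426-204507298. It had a fold of 35.6 at percentile 96.4 of the list, a -log10 q of 337, and its summit 35 bp from TRK-TTT3-2. The nearest end of a protein-coding gene was that of MDM4, an inhibitor of p53, 9304 bp from TRK-TTT3-2. Next in order of -log10 q were TRG-TCC2-1 (fold 17.4, -log10 q 119), TRN-GTT25-1 (13.8, 84.4) and TRN-GTT24-1 (10.4, 73.3). At the low end, TRL-CAA4-1 had a fold of 2.87 at percentile 3.88. Over the 17 genes the median fold was 7.72, at percentile 63.0 of the list.

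Asparagine genes made up 8 of the 17. Among members with POLR3A in either list, R5020 PR was at 8 of 12 asparagine genes and 9 of 59 others. Asparagine was singled out after these values were seen, so the counts are a description. Without the array genes, which hold no asparagine gene, the others were 9 of 37. Proline had PR at 2 of 2 genes and lysine at 2 of 3. Over all chromosomes 68.8% of such asparagine genes (11 of 16) and 29.2% of all such tRNA genes had R5020 PR. Of these 16 asparagine genes, 12 are the chromosome 1 genes already counted, so the share is no separate support. The 4 asparagine genes of other chromosomes gave 3 with PR, against 87 of 292 others. The interval of this difference included 0 (45.2 points, -0.0633 to 66.2). The 8 asparagine genes on chromosome 1 were TRN-GTT6-1 (fold 7.24), TRN-GTT3-1 (8.01), TRN-GTT2-8 (4.20), TRN-GTT2-7 (13.7), TRN-GTT24-1 (10.4), TRN-GTT2-1 (9.48), TRN-GTT25-1 (13.8) and TRN-GTT2-2 (7.72). The 4 with POLR3A and no PR were TRN-GTT4-1, TRN-GTT7-1, TRN-GTT8-1 and TRN-GTT1-1. Their R5020 POLR3A folds were 10.9, 19.2, 32.1 and 10.9, and those of the 8 ran from 32.2 to 60.4, so the groups did not overlap but nearly met. The POLR3A summit at TRN-GTT7-1 lay 188 bp from the gene. Among all members with POLR3A such groups did overlap, since TRV-CAC4-1 (66.2) and TRV-CAC8-1 (65.8) had no PR. POLR3C was absent from all 12 asparagine genes with POLR3A, against 19 of 59 others with R5020. On the other chromosomes R5020 POLR3C was at 1 of 4 asparagine genes and 97 of 292 others, and the interval of that difference included 0 (-8.22 points, -29.4 to 37.0).

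Among members with R5020 PR, asparagine genes also differed in where the PR summit lay. At the 8 asparagine genes the summit was a median of 10.0 bp from the gene, within 0 to 167 bp, and 7 of the 8 lay within 100 bp. At the other 9 genes the median was 213 bp, from 35 to 407 bp, and 1 of 9 lay within 100 bp. TRK-TTT3-1 and TRK-TTT3-2 share 1 region, so its single summit was counted at 396 bp and again at 35 bp. Summit distances at tRNA genes of the other chromosomes were not measured. Summits inside the gene were found at TRN-GTT2-8 and at TRN-GTT6-1, where the summit falls in the capitals of the sequence above. TRN-GTT2-2 was the asparagine gene with a distant summit, at 167 bp. With 1 list there is no error on a summit.

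Positions of these asparagine genes repeated a common layout. TRN-GTT3-1, TRN-GTT2-7, TRN-GTT2-1 and TRN-GTT25-1 lay 2050, 2061, 2055 and 2058 bp from an end of NBPF15, NBPF20, NBPF14 and NBPF19, members of a gene family repeated along this chromosome. All 4 had R5020 PR. TRN-GTT7-1 on the short arm lay 2033 bp from NBPF26 in the same layout and had POLR3A (18.0 and 19.2) but no PR, Brf1 or H3K27Ac. Its POLR3A summits lay 168 bp from the gene with vehicle and 188 bp with R5020, and the vehicle region did not overlap the gene. Genes for U1 small nuclear RNA or its variants lay within 10 kb of 5 of the 8 asparagine genes with PR, of 5 of the 9 without, of 7 of the 12 members without POLR3A in either list, and of 19 of all 83 members. Whether reads were divided among copies of this layout was not tested.

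**Figure D5:**
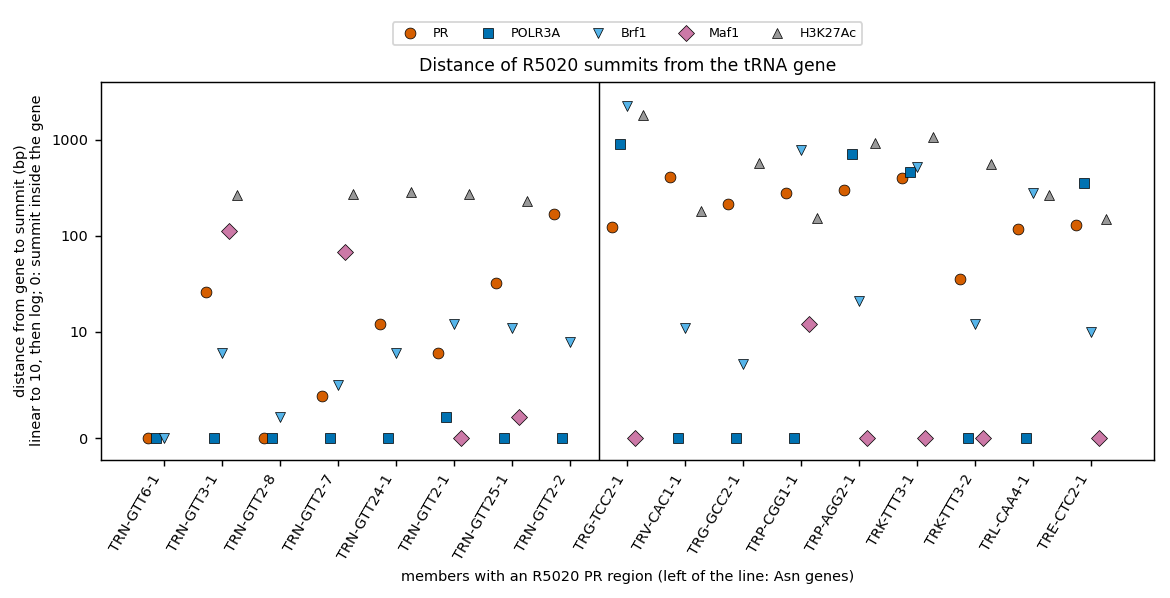
Distance from the gene to the R5020 summit of PR, POLR3A, Brf1, Maf1 and H3K27Ac at the 17 members with R5020 PR, on an axis that is linear to 10 bp and logarithmic beyond. PR circles of the 8 asparagine genes, left of the line, lie at 0 to 167 bp, and those of the 9 other genes at 35 to 407 bp, while no H3K27Ac triangle is nearer than 100 bp.

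Summits of the other proteins had their own distances. POLR3A summits lay inside the gene at 58 of 70 members with R5020. Brf1 summits were a median of 9.50 bp from the gene, and 41 of 50 lay within 100 bp. H3K27Ac summits lay inside no member and were a median of 328 bp away with vehicle and 307 bp with R5020. Within 200 bp of the summit instead of the region's edge, H3K27Ac was at 5 and 7 members.

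Most PR regions lay at members that also had acetylation and Brf1. Among the 71 members with POLR3A, R5020 PR was at 14 of 22 with R5020 H3K27Ac and 3 of 49 without it (difference 57.5 points, 95% Newcombe interval 34.4 to 74.6). Split by the H3K27Ac list of cells without the hormone, the counts were 16 of 26 and 1 of 45 (59.3 points, 38.1 to 75.5). The 1 exception was TRN-GTT2-2, with PR and no H3K27Ac in either list. TRN-GTT6-1 and TRN-GTT2-8 had H3K27Ac in the vehicle list and not in the R5020 list. All 17 PR genes had R5020 Brf1, 17 of 50 against 0 of 21 without Brf1 (34.0 points, 14.7 to 47.8). Other chromosomes had the same pattern for acetylation, 77 of 136 against 13 of 160 with R5020. Without the array genes the R5020 counts on chromosome 1 were 14 of 22 and 3 of 27 (52.5 points, 25.8 to 70.7).

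Maf1 was at 4 members with vehicle and 16 with R5020 (3.32% and 22.3% of all tRNA genes). The vehicle genes were TRE-CTC1-1 (fold 3.85), TRN-GTT2-1 (4.10), TRN-GTT25-1 (2.98) and TRL-CAA4-1 (3.87). TRL-CAA4-1 was the only tRNA gene of the 422 listed with vehicle alone (0.237%), 3 members had Maf1 in both lists (3.08%), and 13 had it with R5020 alone (19.2% of all tRNA genes). The highest -log10 q with R5020 was at TRN-GTT2-1 (27.1, fold 8.05, percentile 88.0), followed by TRK-TTT3-2 (20.6, fold 6.35), TRN-GTT2-7 (14.9, fold 5.40), TRK-TTT3-1 (10.5, fold 4.59) and TRL-CAG1-6 (10.1, fold 4.12). Most Maf1 folds were ordinary for the list, with a median of 4.12 at percentile 45.0. Shortened to 3049 regions, the length of the vehicle list, the R5020 list kept 1 member, TRN-GTT2-1.

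Maf1 summits with R5020 lay inside the gene at 11 of 16 members, and 15 of 16 were within 100 bp. Every member with R5020 Maf1 also had R5020 H3K27Ac: 16 of 22 against 0 of 49 without it, among those with POLR3A (difference 72.7 points, 95% Newcombe interval 50.6 to 86.8). Maf1 and PR shared 10 genes. Maf1 was at 10 of 17 members with R5020 PR and 6 of 54 without (47.7 points, 22.3 to 68.2). The 10 were TRN-GTT3-1, TRN-GTT2-7, TRN-GTT2-1, TRN-GTT25-1, TRG-TCC2-1, TRP-CGG1-1, TRP-AGG2-1, TRK-TTT3-1, TRK-TTT3-2 and TRE-CTC2-1. On the other chromosomes the counts were 52 of 90 and 26 of 206. TRR-TCT1-1 was the short-arm gene with Maf1 (fold 4.34), and it had no PR.

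At TRN-GTT2-7, which had every antibody but POLR3C and POLR3GL with R5020, the folds with vehicle and R5020 were 40.4 and 60.4 for POLR3A and 32.4 and 71.4 for Brf1. POLR3G there had 4.27 and 4.23, and H3K27Ac 8.78 and 18.8. The PR region was at chr1:145287577-145287829 with vehicle and at chr1:145287234-145287944 with R5020, with the summit 46 and 4 bp from the gene.

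Other genes of polymerase III, from a fixed list, were read in the same way. Of 13 such genes, among them RN7SK, RMRP and the vault and Y RNA genes, 13 had POLR3A in both lists. PR was at 2 of these 13 with vehicle and 9 with R5020, and Maf1 at 1 and 5. The 17 5S ribosomal RNA genes of chromosome 1 all had POLR3A and Brf1 in both lists. Their POLR3A folds ran from 6.75 to 10.9 and from 9.84 to 16.3, a range that overlaps that of the tRNA array, and these genes too are tandem repeats. PR was at 4 of the 17 with vehicle, at low folds of 1.79 to 2.54 (list median 4.04), and at 0 with R5020. Maf1 was at 4 with vehicle and 13 with R5020, at folds of up to 2.70. H3K27Ac was at 16 in both lists, at folds of 1.57 to 4.37 with vehicle and 2.09 to 4.31 with R5020. The medians of the H3K27Ac lists were 3.66 and 3.74. The array had no PR, Maf1 or H3K27Ac region.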

How the data were processed

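The 54 libraries (48 ChIP, 6 input) form 18 groups of 3 by title. The 16 deposited lists, 1 per antibody and treatment, are in narrowPeak layout without a header. Reads were handled with cutadapt, Bowtie2 and MACS2 on hg38, per the submitters' processing notes. Settings, controls, the combining of replicates and the placing of reads that match several places are not given in the sources used here. Per peak the authors deposited a fold, which is a ratio, and the -log10 of a q-value, of which the lowest was 1.30. Depth is unknown, since the lists hold no read counts.

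Gene spans came from the RefSeq table (GRCh38.p14, the build of hg38), and of its 98 tRNA entries of chromosome 1 the 15 without a numbered symbol or within the first 100 kb were left out. A region counted within 200 bp. Shares have 95% Wilson intervals and their differences 95% Newcombe intervals. A count of 0 uses a floor of 3 counts. No p-value was computed. The overlap search and the intervals were tested on simulated data. Python 3.11.15, numpy 2.4.6, pandas 2.3.3, scipy 1.17.1 and matplotlib 3.10.9 were used.

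The members, gene lists and named genes were chosen with earlier results of these data known. Named by rule are members with vehicle PR or Maf1, with POLR3GL, or with a POLR3A or Brf1 call that differs between treatments. The rule also names the 5 highest -log10 q of R5020 PR and Maf1, the 5 highest POLR3A and Brf1 folds per list, and the ends of each cluster. Families, the array and asparagine genes were singled out after their values were seen. Alternatives were overlap with the gene, a distance of 1 kb, a -log10 q of at least 5, lists of equal length, summits within 200 bp and other cluster gaps.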

Additional observations from a re-analysis of the deposited data

How the results depend on the processing

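Of 134 alternative values for 23 results, 12 moved by more than 1.5 times the main count or beyond its counting interval. A further 4 lost an interval that excluded 0 and 1 gained one. No difference whose interval excluded 0 changed sign. With both lists of an antibody cut to the same number of strongest regions, members with R5020 PR numbered 2, POLR3A-positive members with R5020 PR 2, and members with R5020 Maf1 1. Required to overlap the gene itself, H3K27Ac was at 16 members with vehicle and 14 with R5020, and with its summit within 200 bp at 5 and 7. At a -log10 q of at least 5 vehicle PR was at 1 member, vehicle Maf1 at 2 and R5020 POLR3GL at 0. Clusters joined over gaps of 100 kb numbered 30. Without the tandem array, an alternative added after the data were seen, the long arm exceeded the short arm in R5020 PR by 37.8 points (13.8 to 52.4). With all members, the interval of that difference included 0 with regions overlapping the gene (20.6 points, -1.28 to 31.6), within 1 kb (20.5, -6.06 to 35.7), with summits within 200 bp (19.1, -2.64 to 30.0) and with lists of equal length (2.94, -17.6 to 10.1). At a -log10 q of at least 5 it excluded 0 (23.5, 1.44 to 34.9). Chromosome 1 minus the other chromosomes in R5020 PR was -14.7 points within 1 kb (-25.0 to -2.94). Where its interval included 0, its sign turned with lists of equal length (0.640), with summits within 200 bp (0.913) and without the array (1.78), as did that of R5020 POLR3A with summits within 200 bp (3.31).

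No paired analysis was possible because each peak list stands for all 3 replicates of a group and carries no replicate number. For the same reason no replicate was left out. Depth is unknown, list lengths differ between treatments, and folds carry no error, and a region missing from a list is one the caller did not report.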

Other observations

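A further pair of tRNA entries of chromosome 1 carries the unnumbered symbol TRNAV-CAC and was therefore no member. They lie at chr1:145157157-145157229 and chr1:145161108-145161178, inside the stretch of the largest long-arm cluster by span. Both had POLR3A in both lists, with folds of 28.9 to 48.3 with vehicle and 42.1 to 58.5 with R5020. Both had Brf1, from 12.7 to 33.7 with vehicle and from 34.8 to 61.5 with R5020. Neither had PR, Maf1 or H3K27Ac in any list, and 1 of the 2 had POLR3G (6.38 with vehicle and 3.58 with R5020). The numbered valine genes TRV-CAC8-1 and TRV-CAC4-1 of the same cluster had R5020 POLR3A folds of 65.8 and 66.2 and no PR, Maf1 or H3K27Ac.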
